A study of Mus musculus with 9 samples.

Results

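Interferon-stimulated genes were followed in the mouse retina after laser-induced retinal vein occlusion (RVO). A set of 44 genes was defined by gene symbol, out of 48587 genes listed in the count table, and all 44 were found there. The RNAseq data comprised 9 samples of retina from C57BL/6J mice aged 12 weeks, each a pool of 6 retinas. In 3 samples all large veins had been occluded by laser (RVO eyes), in 3 samples the same number of laser spots had been placed between the vessels (control eyes), and 3 samples came from mice without laser treatment (untreated eyes). Each laser-treated mouse gave 1 RVO eye and 1 control eye, taken at d2 after laser treatment. These mice had received the photosensitizer eosin Y, so both groups share laser treatment and the dye. They differ in whether the laser was aimed at the large veins. Occlusion and laser injury of the vein itself therefore cannot be told apart. The study also reported that part of the veins reopened over time. The tissue is whole retina, and in bulk RNA a fall in the number of cells of a type and a fall in RNA per cell cannot be told apart.

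Interferons are secreted proteins that bind receptors on the cell surface and activate the kinases Jak1, Jak2 and Tyk2. Type I and type III interferons act through Stat2 and Irf9 on the interferon-stimulated response element (ISRE), and interferon gamma acts on the gamma-activated sequence (GAS). Genes with such elements encode sensors of foreign nucleic acid, antiviral effectors and factors that amplify or end the response, and in the retina they can be induced in glia, vessels, neurons and infiltrating leukocytes.

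The unit of level is CPM (the counts of a gene relative to all counts of its sample), with TMM scaling over all 9 samples, and values stand in the order of samples 1, 2 and 3. Total counts per sample ranged from 21022997 to 28993921 in RVO eyes, from 18897218 to 23419497 in control eyes and from 12377572 to 15245869 in untreated eyes, so that 3 counts corresponded to 0.24 CPM on average in untreated eyes. Groups were compared in pairs with edgeR's quasi-likelihood test, and a gene was called at a Benjamini-Hochberg adjusted p under 0.01 over all genes tested. The rod markers summed to 43969 to 47999 CPM in RVO eyes, 53670 to 65449 CPM in control eyes and 81478 to 83348 CPM in untreated eyes. Lens markers stood apart in 2 samples, RVO2 with 5435 CPM and Control1 with 2840 CPM, whereas they summed to 180.5 to 475 CPM in the other 4 laser-treated samples and to 2.21 to 22.6 CPM in untreated eyes.

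Most interferon-stimulated genes were higher in laser-treated than in untreated eyes, whether or not the veins were occluded. In RVO eyes 42 of the 44 genes rose against untreated eyes and none fell, where 27.4% of all 16380 tested genes rose and 24.6% fell. In control eyes all 43 tested members rose, where 27.2% of 16066 tested genes rose and 25.2% fell. The members had a median of 2.81 in RVO eyes and 2.38 in control eyes on the log2 scale, and that of all tested genes was 0.01 in both comparisons. Both comparisons rest on the same 3 untreated samples, so they are not independent of each other. The members were chosen with earlier results of these data known, so their shares are descriptions and not a test. Every RVO sample lay above every untreated sample for 43 of the 44 members, against 35.9% of all tested genes, and every control sample did so for all 43 tested members, against 34.6%. The Mx1 transcript was not tested between control and untreated eyes because of its low counts.

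Between RVO and control eyes few members were called. Only Ifitm3 was called higher and no member was called lower, where 2.7% of 16874 tested genes were called higher and 0.634% lower. At an adjusted p under 0.05 the count was 5 (Ifitm3, Irf9, Oas2, Oas3 and Trim30a) and 0 lower, where 17.5% of all genes were higher and 17.1% lower. The log2 fold change was above 0 for 30 members and below 0 for 14, with a median of 0.47 against 0.02 for all genes. An unadjusted p under 0.05 was found for 14 of the 44 members and for 7940 of all 16874 tested genes. For 4 members (Ifitm3, Oas2, Oas3 and Trim30a) the 3 RVO samples lay above the 3 control samples, against 26.7% of all tested genes. An adjusted p above the threshold does not show that RVO and control eyes had the same level.

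**Figure D1:**
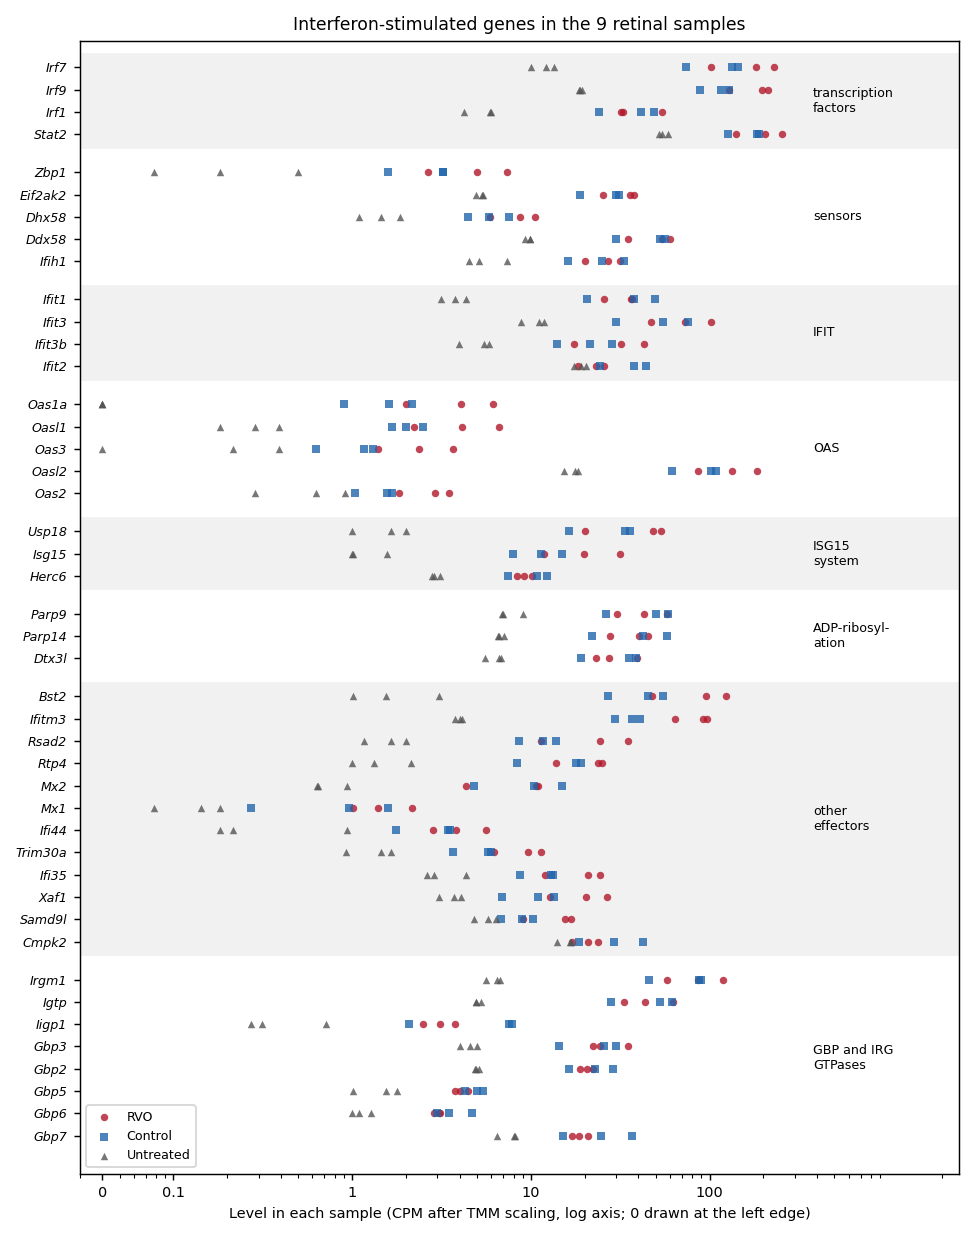
Level of each of the 44 members in each of the 9 samples, as CPM after TMM scaling on a log axis, with the value 0 drawn at the left edge and genes grouped by role. Untreated samples (triangles) lie to the left of both laser-treated groups for nearly all genes, except for Ifit2, whose RVO and untreated samples overlap, and RVO samples (circles) and control samples (squares) overlap for most genes.

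The spread between pools was large within the laser-treated groups. The summed level of the 44 members was 1968, 1186 and 2025 CPM in RVO eyes, 893, 1504 and 1629 CPM in control eyes, and 276, 260.0 and 266 CPM in untreated eyes. RVO2 had the lowest value of its group for 39 of 44 members and Control1 had the lowest of its group for 42 of 44. These are the same 2 samples that were rich in lens transcripts. RVO2 also had the highest sums of its group for markers of pigment epithelium (449 CPM, against 179 and 208), endothelial cells (254 CPM, against 139 and 185) and bipolar cells (860.3 CPM, against 549 and 627). The same held for Mueller cell (1740 CPM, against 1236 and 1458), cone (619 CPM, against 449 and 372) and rod markers (47999 CPM, against 45726 and 43969). It also held for microglia (83.5 CPM, against 51.8 and 56.9) and astrocyte markers (362 CPM, against 249 and 345). RVO2 thus differed from the other RVO samples in more than lens transcripts. RVO2 had the lowest sums for neutrophil markers (46.8 CPM, against 99.6 and 104) and erythroid markers (49.6 CPM, against 196 and 79.2). Its sum for monocyte and macrophage markers was also the lowest (96.1 CPM, against 98.1 and 112). Control1 likewise had the highest sums of its group for pigment epithelium (191 CPM, against 158 and 127) and bipolar cells (1190 CPM, against 1106 and 1171). Unlike RVO2, it had the lowest endothelial sum (304 CPM, against 339 and 321) and the highest erythroid sum (31.2 CPM, against 29.1 and 28.6). Its neutrophil sum was 23.3 CPM, against 24.8 and 8.37. The Mueller cell, cone and rod sums of Control1 lay between those of the other control samples, and its microglia sum was the highest (90.7 CPM, against 84.4 and 81.9). The part of these differences in the levels of the members was not tested, but the comparison was repeated without these samples. Without RVO2, 14 members were called higher in RVO than in control eyes (17.1% of 17199 genes were higher). With any other sample left out the count was 0 with edgeR, where at most 0.169% of all tested genes were called higher and none lower. In those fits 3 to 10 members had an unadjusted p under 0.05, as did 6100 to 6916 of all tested genes. With both lens-rich samples left out, 15 members were called higher and 3 lower, where 12.5% of all tested genes were higher and 16% lower. The 15 members were Irf7, Irf9, Oas1a, Oas3, Oasl1, Oasl2, Isg15, Usp18, Rsad2, Bst2, Ifitm3, Ifi35, Samd9l, Xaf1 and Trim30a, and the 3 lower members were Ifit2, Cmpk2 and Iigp1. This alternative was chosen after seeing the data, and it leaves 2 samples in each group.

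**Figure D2:**
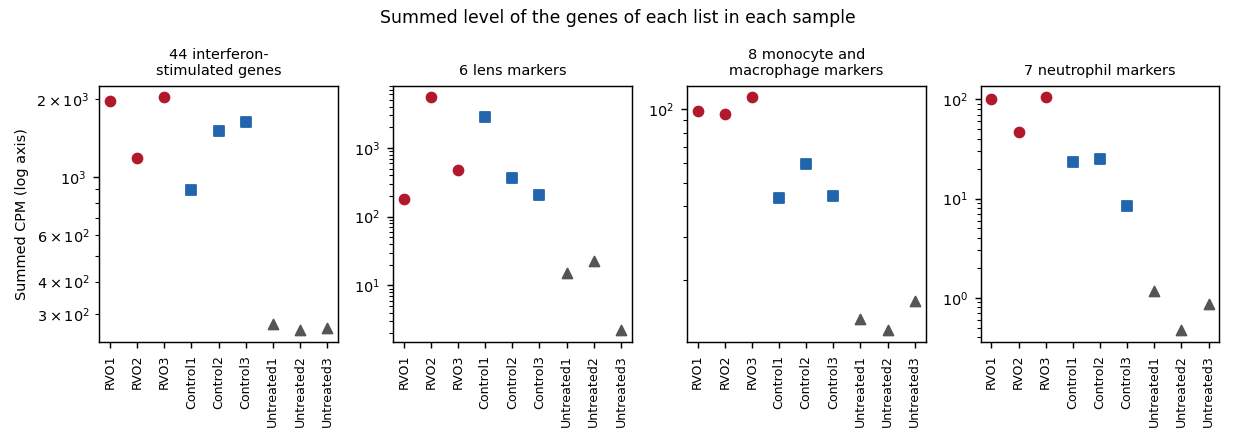
Summed CPM of the 44 members and of 3 marker lists in each sample, on log axes that differ between panels. The samples RVO2 and Control1 hold the lowest sums of members in their groups, 1186 and 893 CPM, and the highest sums of lens markers, 5435 and 2840 CPM.

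Markers of infiltrating leukocytes also moved with the laser treatment. Markers of monocytes and macrophages summed to 96.1 to 112 CPM in RVO eyes, 43.4 to 59.9 CPM in control eyes and 12.4 to 16.4 CPM in untreated eyes, and 6 of 8 tested markers rose in RVO and 5 of 7 in control eyes. Neutrophil markers summed to 46.8 to 104 CPM, 8.37 to 24.8 CPM and 0.469 to 1.18 CPM, and all 5 tested markers rose in RVO eyes and all 4 in control eyes. The microglia list summed to 51.8 to 83.5 CPM, 81.9 to 90.7 CPM and 133 to 203 CPM, with 4 of 8 markers lower in RVO and 5 of 8 lower in control eyes. Dendritic cell markers summed to 7.96 to 11.0 CPM, 13.1 to 13.6 CPM and 15.3 to 21.1 CPM. Of 5 tested dendritic cell markers 2 were lower in RVO and 1 in control eyes, and none was higher. The 11 markers of T and NK cells, which produce interferon gamma, summed to at most 1.41 CPM in any sample, and none of them passed the filter on low counts. Markers of resident cells moved as well. In RVO eyes 5 of 6 rod, 4 of 5 cone, 5 of 6 bipolar and 4 of 6 Mueller cell markers fell, and 1 rod marker rose. In control eyes 3 of 6, 4 of 5, 3 of 6 and 3 of 6 fell, and 1 rod, 1 cone and 1 Mueller cell marker rose. Of all tested genes 24.6% fell in RVO and 25.2% in control eyes. All 6 endothelial markers rose in control eyes and 3 of 6 in RVO eyes, with sums of 304 to 339 CPM in control, 139 to 254 CPM in RVO and 157 to 161 CPM in untreated eyes. Of 3 astrocyte markers 2, Gfap and Aldh1l1, rose in both groups, and Pax2 was not called in RVO (adjusted p = 0.146) or control eyes (adjusted p = 0.185). The sums were 249 to 362 CPM in RVO, 276 to 453 CPM in control and 33.9 to 36.6 CPM in untreated eyes, and Gfap made up 73.5% of the list's level. The part of any of these cells in the levels of the interferon-stimulated genes was not tested.

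The transcription factors of the pathway rose in both laser-treated groups. Irf7, which amplifies the production of type I interferon, was at 183, 101 and 228 CPM in RVO eyes, 74.0, 134 and 144 CPM in control eyes and 13.5, 10.001 and 12.2 CPM in untreated eyes. All laser-treated samples lay above the untreated ones, and RVO and control samples overlapped. The log2 fold change of Irf7 was 3.88 ± 0.30 (SE) in RVO and 3.32 ± 0.23 in control eyes against untreated eyes, and 0.55 ± 0.33 for RVO against control eyes (adjusted p = 0.232). Irf9, the DNA-binding subunit of the complex that recognizes the ISRE, was at 197, 128 and 212 CPM in RVO eyes, 88.5, 129 and 116 CPM in control eyes and 19.2, 18.5 and 18.9 CPM in untreated eyes. It rose by 3.28 ± 0.19 and 2.57 ± 0.12 on the log2 scale, and the sample RVO2 lay within the range of the control samples, and the difference of 0.69 ± 0.21 between RVO and control eyes had an adjusted p of 0.0386. Stat2, its partner, was at 204, 140.3 and 253 CPM in RVO eyes, 126, 189 and 185 CPM in control eyes and 58.2, 54.2 and 51.9 CPM in untreated eyes. Every laser-treated sample lay above the untreated ones, and Stat2 rose by 1.89 ± 0.20 and 1.63 ± 0.13. Irf1, which is induced chiefly by interferon gamma, was at 32.6, 32.0 and 53.9 CPM in RVO eyes, 24.1, 41.1 and 48.7 CPM in control eyes and 5.90, 4.22 and 6.00 CPM in untreated eyes. It rose by 2.91 ± 0.25 and 2.84 ± 0.25 and its RVO and control samples overlapped (0.06 ± 0.29, adjusted p = 0.889).

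Sensors of foreign nucleic acid rose as well, all 5 of 5 in both groups. Zbp1, a sensor of Z-form nucleic acid that can start necroptosis, was at 7.39, 2.68 and 4.97 CPM in RVO eyes, 1.58, 3.23 and 3.22 CPM in control eyes and 0.182, 0.0781 and 0.49998 CPM in untreated eyes. This was the largest rise of the sensors, 4.26 ± 0.60 and 3.33 ± 0.49 on the log2 scale, from a level near the limit of counting. Eif2ak2, the kinase PKR that blocks translation when it binds double-stranded RNA, was at 35.8, 25.2 and 37.7 CPM in RVO eyes, 18.7, 31.0 and 29.8 CPM in control eyes and 5.36, 5.39 and 4.93 CPM in untreated eyes. It rose by 2.69 ± 0.18 and 2.36 ± 0.19. Ifih1, the RNA sensor MDA5, was at 27.0, 20.1 and 31.7 CPM in RVO eyes, 16.1, 25.2 and 33.0 CPM in control eyes and 7.35, 5.16 and 4.50 CPM in untreated eyes and rose by 2.26 ± 0.23 and 2.17 ± 0.25. The related helicases Ddx58 (RIG-I) and Dhx58 (LGP2) rose by 2.39 and 2.54 in RVO eyes and by 2.28 and 2.02 in control eyes. Between RVO and control eyes none of the 5 was called, and the control and RVO samples of each overlapped.

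The IFIT family, which binds viral RNA and blocks its translation, did not move as a block. Ifit1 was at 36.2, 25.5 and 36.8 CPM in RVO eyes, 20.6, 37.8 and 49.6 CPM in control eyes and 4.36, 3.13 and 3.79 CPM in untreated eyes, and Ifit3 was at 102, 46.9 and 72.6 CPM in RVO eyes, 30.1, 55.2 and 75.9 CPM in control eyes and 11.1, 11.9 and 8.86 CPM in untreated eyes. Both stood above the untreated samples in every laser-treated sample, with log2 fold changes of 3.16 ± 0.20 and 2.83 ± 0.28 in RVO eyes and 3.29 ± 0.30 and 2.37 ± 0.27 in control eyes. Ifit3b rose by 2.63 and 2.09. Ifit2 was at 18.4, 25.8 and 23.1 CPM in RVO eyes, 24.4, 43.96 and 38.0 CPM in control eyes and 17.3, 20.2 and 19.1 CPM in untreated eyes. The RVO samples of Ifit2 overlapped the untreated samples (0.28 ± 0.14, adjusted p = 0.108), whereas the control samples lay above them (0.92 ± 0.17, adjusted p = 4.97e-04). The difference between RVO and control eyes was -0.66 ± 0.22 with an adjusted p of 0.0520, and it was called without the lens-rich samples (log2 fold change -1.004, adjusted p = 0.000439). The 4 genes lie close together on chromosome 19, within chr19:34550694-34650009 of the mouse genome (build GRCm38, GENCODE vM21). Of the stretches of 50 bases (the read length) in Ifit3, 51.2% are shared with Ifit3b, and 44.5% of those in Ifit3b are shared with Ifit3, so their separate values are uncertain.

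The OAS family synthesizes the oligoadenylates that activate RNase L, and it had the largest median difference between RVO and control eyes of the 8 roles, 1.08 on the log2 scale, with all 5 members above 0. All 5 sensors and all 4 transcription factors were also above 0. Oas1a was at 6.15, 1.996 and 4.09 CPM in RVO eyes, 0.904, 1.62 and 2.18 CPM in control eyes and 0, 0 and 0 CPM in untreated eyes. It had 0 counts in every untreated sample, so its fold change is a lower bound against 3 counts per sample. RVO eyes had at least 16.97-fold higher Oas1a than untreated eyes, and control eyes at least 6.51-fold higher. Of its 50-base stretches 57.6% are shared with Oas1g, which makes its count uncertain. Oasl1, which lacks the synthetase activity, was at 6.60, 2.21 and 4.13 CPM in RVO eyes, 2.49, 1.67 and 2.01 CPM in control eyes and 0.182, 0.391 and 0.286 CPM in untreated eyes. It rose by 3.91 ± 0.56 and 2.81 ± 0.35. Oas2 was at 3.47, 1.83 and 2.90 CPM in RVO eyes, 1.04, 1.57 and 1.67 CPM in control eyes and 0.908, 0.625 and 0.286 CPM in untreated eyes. Its RVO samples lay above its control samples, with a difference of 0.95 ± 0.30 (adjusted p = 0.0444), and it rose by 2.25 ± 0.42 and 1.29 ± 0.38 against untreated eyes. Oas3 likewise did not overlap between RVO and control eyes (1.26 ± 0.41, adjusted p = 0.0491). It rose by 3.54 and 2.26, and Oasl2 rose by 3.01 and 2.43. Without RVO2, Oas1a, Oas2, Oas3 and Oasl1 were called higher in RVO than in control eyes, with adjusted p-values of 0.00185, 0.00364, 0.00371 and 0.00159.

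Isg15 is a ubiquitin-like protein that is attached to other proteins, Herc6 is its main ligase in the mouse, and Usp18 removes it and dampens signalling from the type I receptor. These 3 genes had the largest median rise of the 8 roles, 4.15 in RVO and 3.25 in control eyes on the log2 scale. Usp18 was at 53.5, 20.05 and 48.3 CPM in RVO eyes, 16.3, 33.7 and 36.1 CPM in control eyes and 0.999, 1.64 and 1.9999 CPM in untreated eyes. The rise was 4.72 ± 0.45 and 4.19 ± 0.34. Isg15 was at 31.4, 11.8 and 19.9 CPM in RVO eyes, 7.96, 11.5 and 14.9 CPM in control eyes and 0.999, 1.02 and 1.57 CPM in untreated eyes. It rose by 4.15 ± 0.43 and 3.25 ± 0.28, and RVO2 lay within the range of the control samples while the other RVO samples were above them. Herc6 was at 10.2, 8.41 and 9.15 CPM in RVO eyes, 7.46, 10.8 and 12.3 CPM in control eyes and 3.09, 2.81 and 2.86 CPM in untreated eyes. Its rise was smaller, 1.70 ± 0.16 and 1.82 ± 0.20, and its RVO and control samples overlapped (-0.13 ± 0.19, adjusted p = 0.617).

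Parp9 and Dtx3l form a complex that joins ADP-ribosylation to ubiquitin transfer, and Parp14 is a related mono-ADP-ribosyltransferase. Parp9 was at 43.0, 30.3 and 57.5 CPM in RVO eyes, 26.4, 50.4 and 58.5 CPM in control eyes and 8.99, 6.95 and 6.86 CPM in untreated eyes. Parp14 was at 40.4, 27.6 and 45.0 CPM in RVO eyes, 21.9, 42.7 and 57.6 CPM in control eyes and 7.08, 6.56 and 6.64 CPM in untreated eyes, and Dtx3l was at 27.3, 23.2 and 39.4 CPM in RVO eyes, 19.1, 35.2 and 38.5 CPM in control eyes and 6.63, 5.55 and 6.79 CPM in untreated eyes. For each of the 3 genes Control1 lay below every RVO sample, and the other control samples lay within or above the range of the RVO samples. Their log2 fold changes against untreated eyes were 2.56 ± 0.25, 2.51 ± 0.19 and 2.28 ± 0.22 in RVO and 2.599 ± 0.26, 2.61 ± 0.29 and 2.31 ± 0.24 in control eyes. For RVO against control eyes they were -0.05 ± 0.32, -0.11 ± 0.33 and -0.04 ± 0.29 (adjusted p = 0.923, 0.818 and 0.917). Parp9 and Dtx3l lie head to head on opposite strands and overlap in 9.4% and 8% of their exon sequence. The library kit marks strand, but the strand setting of the count is not given in the sources used here, so their reads in the overlap cannot be told apart.

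Among the other antiviral effectors, Ifitm3 was the 1 member called between RVO and control eyes. Ifitm3, which keeps viruses from leaving endosomes, was at 97.1, 64.0 and 92.2 CPM in RVO eyes, 29.4, 40.8 and 36.9 CPM in control eyes and 4.00, 3.75 and 4.14 CPM in untreated eyes. The 3 groups did not overlap. The log2 fold change was 1.25 ± 0.18 between RVO and control eyes (2.37-fold, adjusted p = 0.00928), 4.44 ± 0.19 between RVO and untreated eyes and 3.19 ± 0.15 between control and untreated eyes. Its call between RVO and control eyes was lost when any sample other than RVO2 was left out, with log2 fold changes of 1.118 to 1.35 and adjusted p-values of 0.0204 to 0.0567 (edgeR). In those fits nearly all genes lost their calls, with at most 0.169% of all tested genes called higher and none lower. About 1 in 10 of its 50-base stretches are shared with other genes. Bst2, or tetherin, which holds budding viruses at the cell surface, was at 124, 47.5 and 95.1 CPM in RVO eyes, 27.1, 54.6 and 45.0 CPM in control eyes and 1.54, 1.02 and 3.07 CPM in untreated eyes. This was the largest rise of all members with counts in untreated eyes, 5.56 ± 0.47 and 4.47 ± 0.32. The samples of RVO and control eyes overlapped through RVO2, and the difference was 1.08 ± 0.37 (adjusted p = 0.0565).

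Cmpk2, a mitochondrial nucleotide kinase, had the smallest change of these effectors in RVO eyes. It was at 20.8, 16.9 and 23.6 CPM in RVO eyes, 18.5, 29.2 and 42.6 CPM in control eyes and 14.0, 16.6 and 16.9 CPM in untreated eyes. Against untreated eyes the change was 0.40 ± 0.15 on the log2 scale in RVO (adjusted p = 0.0401) and 0.94 ± 0.23 in control eyes (adjusted p = 0.00295). Rsad2, or viperin, its neighbour on chromosome 12 on the opposite strand, was at 35.0, 11.3 and 24.5 CPM in RVO eyes, 8.59, 11.8 and 13.9 CPM in control eyes and 1.998, 1.17 and 1.64 CPM in untreated eyes. Rsad2 rose by 3.92 ± 0.46 in RVO and 2.86 ± 0.23 in control eyes. The difference between the changes of these neighbouring genes was not tested. In the comparison of RVO with control eyes Rsad2 was higher by 1.06 (adjusted p = 0.0659) and Cmpk2 had a value of -0.56 (adjusted p = 0.157), neither of them called.

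**Figure D3:**
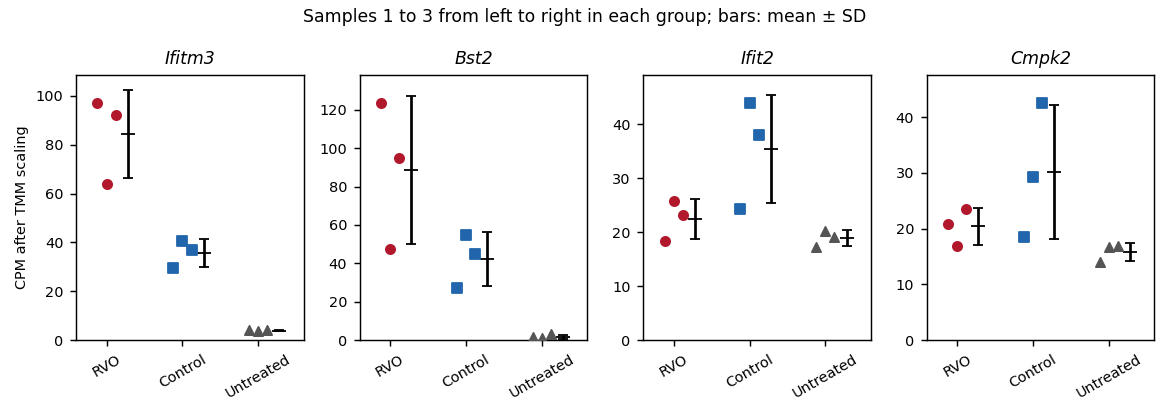
CPM of Ifitm3, Bst2, Ifit2 and Cmpk2 in each sample, with samples 1 to 3 from left to right and the mean ± SD of each group beside them. RVO values lie above control values for Ifitm3, with 64.0 CPM as the lowest RVO and 40.8 CPM as the highest control value, whereas for Ifit2 and Cmpk2 the highest values are in control eyes.

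The remaining effectors include Xaf1, which promotes apoptosis, Samd9l, which restricts viral translation, and Trim30a, a ubiquitin ligase. Rtp4, Mx2 and Ifi44 rose by 3.81, 3.57 and 3.21 in RVO and by 3.32, 3.77 and 2.69 in control eyes. Trim30a, Ifi35, Xaf1 and Samd9l rose by 2.81, 2.56, 2.51 and 1.33 in RVO and by 1.97, 1.82, 1.55 and 0.64 in control eyes. These 4 were also among the members called higher in RVO than in control eyes without RVO2. Mx1 had 5 counts over the untreated samples and 124 over the RVO samples, a ratio of 12.1 per scaled count with a 95% exact interval of 5.04 to 37.8 that covers counting error only. In control eyes it had 63 counts, a ratio of 7.24 (2.94 to 23.1). Mx1 and Mx2 belong to a family of genes for dynamin-like GTPases, and Mx2 is listed as a polymorphic pseudogene in the annotation. The values of Mx1 and Mx2 are transcript levels. Whether these mice make a working protein from either gene was not tested. Exons of Ifi35 overlap the antisense gene Gm11626 over 16.8% of their length.

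GBP and IRG proteins are GTPases that act on the vacuoles of intracellular pathogens and respond strongly to interferon gamma. All 8 rose in both groups, by a median of 2.35 (RVO) and 2.29 (control) on the log2 scale, and the median difference between RVO and control eyes was -0.20, the lowest of the 8 roles. Irgm1 was at 86.7, 57.6 and 119.6 CPM in RVO eyes, 45.6, 89.9 and 87.6 CPM in control eyes and 6.45, 6.72 and 5.64 CPM in untreated eyes. Igtp was at 43.8, 33.3 and 62.4 CPM in RVO eyes, 27.99, 52.6 and 61.6 CPM in control eyes and 4.90, 4.92 and 5.29 CPM in untreated eyes. Both were far above untreated eyes in every laser-treated sample, by 3.84 ± 0.28 and 3.23 ± 0.24 in RVO and 3.59 ± 0.25 and 3.25 ± 0.27 in control eyes on the log2 scale. Gbp7 was at 18.5, 17.1 and 20.9 CPM in RVO eyes, 15.1, 24.6 and 36.8 CPM in control eyes and 8.08, 8.13 and 6.50 CPM in untreated eyes. It had the smallest rise of the group in RVO eyes, 1.35 ± 0.14, and 1.78 ± 0.27 in control eyes. Iigp1 was at 2.49, 3.78 and 3.12 CPM in RVO eyes, 2.08, 7.53 and 7.87 CPM in control eyes and 0.272, 0.313 and 0.714 CPM in untreated eyes. Its fold change between RVO and control eyes, -0.90 ± 0.46 (adjusted p = 0.160), was the lowest of all members and was called lower without the lens-rich samples (-1.49, adjusted p = 0.000446). Gbp2, Gbp3, Gbp5 and Gbp6 rose by 2.08, 2.62, 1.51 and 1.46 in RVO and by 2.21, 2.38, 1.77 and 1.76 in control eyes. Gbp6 shares 70.7% of its 50-base stretches with other annotated genes and its count is uncertain.

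**Figure D4:**
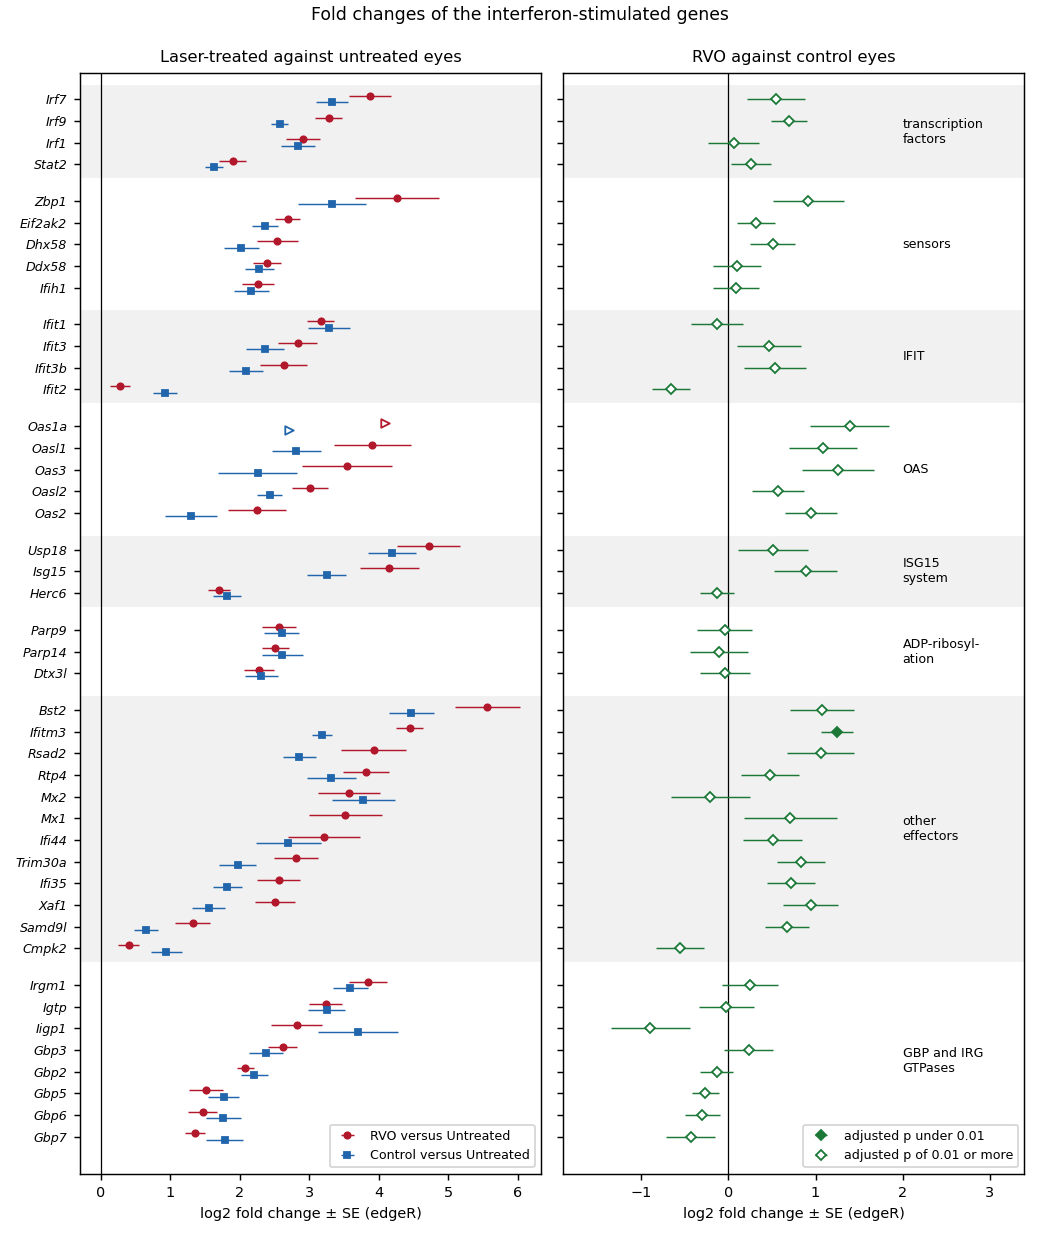
Log2 fold change with its SE of each member, RVO and control against untreated eyes (left panel) and RVO against control eyes (right panel). For Oas1a, which had 0 counts in untreated eyes, the left panel shows lower bounds as open arrowheads, and Mx1 has no control value there because it was not tested. In the left panel the values lie to the right of 0, and in the right panel OAS genes lie right of 0 with a median of 1.08 and GBP and IRG genes lie around a median of -0.20.

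The medians by role were also computed without the lens-rich samples. With both left out, the median difference between RVO and control eyes was 1.41 on the log2 scale for the OAS family, 0.75 for the other effectors, 0.53 for the ISG15 system and 0.41 for the transcription factors, and -0.17 for the ADP-ribosylation genes and -0.39 for the GBP and IRG genes. With all samples these medians were 1.08, 0.71, 0.51, 0.40, -0.05 and -0.20. Sensors had medians of 0.32 and 0.25, and the IFIT family 0.17 and 0.05, with all samples and without the lens-rich samples. Without RVO2 alone the ADP-ribosylation median was above 0 (0.085), and without Control1 alone the IFIT median was below 0 (-0.12). These medians are descriptions of groups of 3 to 12 genes, and differences between roles were not tested.

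Per length of transcript, the order of the members changed with laser treatment. As CPM per kilobase of annotated exon (RPKM), the highest members in untreated eyes were Stat2 with 9.24 ± 0.536, Ifit3 with 6.08 ± 0.897, Ifitm3 with 5.84 ± 0.292, Ifit2 with 4.81 ± 0.372 and Cmpk2 with 3.80 ± 0.385 RPKM (mean ± SD, n = 3). Ifit3 and Ifitm3 did not differ beyond their spread. In RVO eyes Ifitm3 was first with 125 ± 26.3 RPKM and Bst2 second with 98.3 ± 42.5 RPKM, before Irf7 with 45.2 ± 17.01 RPKM and Ifit3 with 42.2 ± 15.7 RPKM. The same 4 genes led in control eyes, with 52.7 ± 8.54 RPKM for Ifitm3 and 46.8 ± 15.4 RPKM for Bst2. Ifit2 moved from rank 4 of 44 in untreated eyes to rank 22 in RVO and rank 16 in control eyes, and Cmpk2 from rank 5 to ranks 25 and 18.

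The promoters of the members were searched for the elements of the pathway. The members were listed as interferon-stimulated genes, so the list itself favours these motifs. Their shares are descriptions and not a test of the rise. Windows of 300 bases, from 250 bases before to 50 bases after an annotated RefSeq start (build GRCm38.p6), were matched by symbol for 33 of the 44 members, which have 38 windows. The ISRE core was searched as GAAA, any 2 bases and again GAAA, and the GAS as TTCNNNGAA, on both strands. The ISRE core was present in 21 of 38 windows (55.3%), against 3.44% of all 32851 windows, and 23.7% of the members' windows held at least 2 cores, against 0.225%. GAS was present in 10 windows (26.3%), against 8.3% of all windows. The 2 motifs overlapped in Bst2 and Ifitm3. The core was found in 6 of 7 GBP and IRG windows and in 3 of 5 IFIT windows. No core was found for 13 of the 33 members, of which 11 rose in RVO eyes (Irf7, Irf9 and Oasl1 among them). The other 2, Ifit2 and Cmpk2, were not called in RVO eyes but were called higher in control eyes, both against untreated eyes. A match is a sequence feature and not a binding site shown in these samples, and a window without a match says only that these letters are absent from it.

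The stretches that hold the core are shown for the members described with their values above, from at most 20 bases before the first to 20 bases after the last core. They end no later than the base before the start, except for Eif2ak2, Ifih1 and Ifitm3, whose cores lie within the first 50 transcribed bases and are shown with at most 30 bases. Each is written on the strand of the gene, and capitals mark the core in either orientation.
Stat2, chr10:128270256-128270305, plus strand: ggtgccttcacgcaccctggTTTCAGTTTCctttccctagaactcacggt
Eif2ak2, chr17:78882535-78882564, minus strand: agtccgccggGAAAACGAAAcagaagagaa
Ifih1, chr2:62646206-62646233, minus strand: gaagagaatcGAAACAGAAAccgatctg
Ifit1, chr19:34640765-34640833, plus strand: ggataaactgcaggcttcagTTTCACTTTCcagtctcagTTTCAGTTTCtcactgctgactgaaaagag
Ifit3, chr19:34583353-34583436, plus strand: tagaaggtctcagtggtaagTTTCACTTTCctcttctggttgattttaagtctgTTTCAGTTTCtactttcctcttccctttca
Oas1a, chr5:120907526-120907565, minus strand: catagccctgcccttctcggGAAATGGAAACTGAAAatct
Isg15, chr4:156200855-156200916, minus strand: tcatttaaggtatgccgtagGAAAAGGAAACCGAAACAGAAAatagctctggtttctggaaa
Bst2, chr8:71537567-71537622, minus strand: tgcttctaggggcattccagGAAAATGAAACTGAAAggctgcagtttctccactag
Ifitm3, chr7:141010715-141010743, minus strand: gGAAAAGGAAActtctgaGAAACCGAAAc
Rsad2, chr12:26456543-26456592, minus strand: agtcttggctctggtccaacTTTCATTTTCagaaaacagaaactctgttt
Irgm1, chr11:48871421-48871470, minus strand: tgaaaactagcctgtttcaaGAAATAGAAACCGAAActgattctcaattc
Igtp, chr11:58199502-58199551, plus strand: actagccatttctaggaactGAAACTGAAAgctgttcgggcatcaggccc
Gbp7, chr3:142530263-142530312, plus strand: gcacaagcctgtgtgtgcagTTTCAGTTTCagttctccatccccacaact
Overlapping cores form a longer run of capitals in Isg15, with 3 cores, and in Oas1a, Bst2 and Irgm1, with 2 cores each. In Ifit1 and Ifit3 a pair of cores lies on the opposite strand to the gene.

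**Figure D5:**
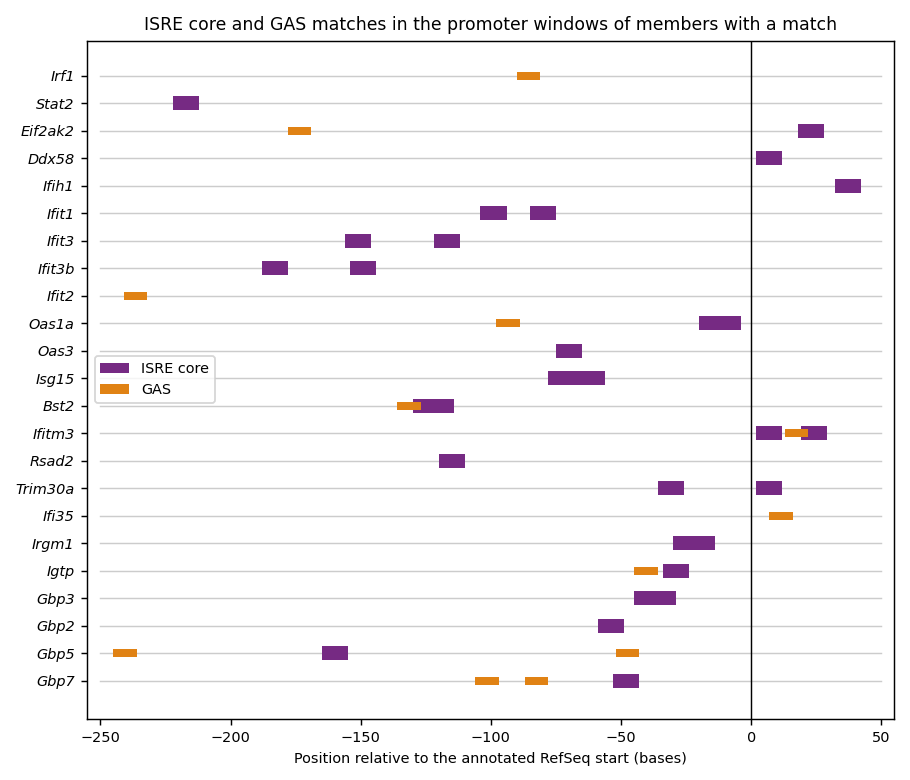
Positions of ISRE core matches (wide bars) and GAS matches (narrow bars) in the windows of the members that hold at least 1 match, in bases from the annotated start, with a line for the span of the windows. For genes with more than 1 window the windows are drawn on the same line. Most ISRE cores lie before the start, and those of Ddx58, Eif2ak2, Ifih1 and Ifitm3 and 1 of those of Trim30a lie after it.

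The ligands of the pathway were hardly detected. Of 12 listed interferon genes, none passed the filter on low counts and 10 had 0 counts in all 9 samples (Ifna1, Ifna2, Ifna4, Ifna5, Ifne, Ifnk, Ifnz, Ifng, Ifnl2 and Ifnl3). Ifnb1 had 1 count in RVO1, and Ifnab had 1 count in Control3 and 1 in Untreated3. A count of 0 allows up to 3 counts, or 0.0956 to 0.132 CPM in the RVO samples, 0.126 to 0.152 CPM in the control samples and 0.214 to 0.272 CPM in the untreated samples, for counting error only. A difference in ligands was therefore not detectable at this depth and at d2.

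Some of the receptors and kinases of the pathway changed against untreated eyes. Of the receptor chains, Ifnar2, Il10rb and Ifnlr1 rose in RVO eyes by 0.96 ± 0.15, 1.16 ± 0.17 and 1.66 ± 0.44, and Ifngr1 fell in control eyes (-0.42 ± 0.09). Ifnar1 and Ifngr2 were not called, with 0.13 and 0.07 in RVO and -0.10 and 0.05 in control eyes. Of the kinases, Tyk2 rose by 0.65 and 0.56, Jak1 fell in both groups (-0.47 and -0.34), and Jak2 fell in control eyes (-0.47).

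Of 15 tested genes of nucleic acid sensing upstream of interferon, 10 rose and 2 fell in RVO eyes (against 27.4% and 24.6% of all tested genes), and 8 rose and 1 fell in control eyes (against 27.2% and 25.2%). The largest rises in RVO eyes were those of Ifi204, a sensor of DNA (3.62), Irf8, a factor of myeloid cells (3.44), and Ikbke, a kinase that activates Irf3 and Irf7 (2.88). The kinase Tbk1 fell in both groups (-0.44 and -0.46) and the DNA sensor Aim2 fell in RVO eyes (-1.01). Ticam1, the adaptor of Tlr3, was the only gene of this list called higher in RVO than in control eyes (0.94 ± 0.15, adjusted p = 0.00995).

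Of 11 genes that restrain interferon signalling, 5 rose and 2 fell in RVO eyes, and 3 rose and 4 fell in control eyes. The shares in control eyes were near those of all tested genes (27.2% higher and 25.2% lower), and those of RVO eyes stand beside 27.4% and 24.6%. Socs1, an inhibitor of Jak kinases, had 1 count over the untreated samples and 7.04, 4.97 and 8.66 CPM in RVO and 3.12, 4.19 and 4.77 CPM in control eyes. Socs3, the related inhibitor of cytokine receptors, was at 189, 140.4 and 176 CPM in RVO eyes, 57.1, 94.6 and 61.6 CPM in control eyes and 3.00, 3.204 and 2.79 CPM in untreated eyes and rose by 5.85 ± 0.16 and 4.59 ± 0.22. The phosphatase Ptpn6 rose by 1.67 in RVO eyes. Pias1, a SUMO ligase, and Tnfaip3, an inhibitor of NF-kappaB, fell in both groups, with log2 fold changes of -0.56 and -1.47 in RVO and -0.52 and -0.95 in control eyes, and Ptpn2 and Trim24 fell in control eyes (-0.30 and -0.46). With edgeR none of these 11 genes was called between RVO and control eyes, and at an adjusted p under 0.05, 5 were higher and 1 lower, where 17.5% and 17.1% of all genes were.

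Most of a wider list of 66 other interferon-induced genes rose as well. Of 54 tested genes 47 rose and 1 fell in RVO eyes (median 2.24 on the log2 scale), where 27.4% of all tested genes rose and 24.6% fell. Of 50 tested genes 44 rose and none fell in control eyes (median 1.63), where 27.2% of all tested genes rose and 25.2% fell. The largest fitted changes in RVO eyes were those of Ms4a4c, Slfn1 and Mlkl, but these rest on 0 or 1 untreated counts, and their order among the genes of the list is not established. No count of Ms4a4c was found without laser treatment, and by the same bound its rise in RVO eyes was at least 5.20-fold. Slfn1 was at 7.77, 3.397 and 7.30 CPM in RVO eyes with 1 count over the untreated samples, and the 95% exact interval of its ratio was 42.6 to 9441. Mlkl, the executor of necroptosis, was at 4.27, 1.36 and 2.20 CPM, also with 1 untreated count and an interval of 18.7 to 4172. Trafd1, a negative regulator of innate signalling, fell in RVO eyes (-0.41 ± 0.09). Between RVO and control eyes 4 of 58 tested genes were called higher, Ifi27 (1.14), Ifi30 (0.70), Ifitm2 (0.87) and Lgals3bp (0.86), and none lower. Of all tested genes 2.7% were called higher and 0.634% lower.

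Among the 35 members that share under 10% of their 50-base stretches with other genes, 33 rose in RVO and all 34 tested rose in control eyes against untreated eyes, with medians of 2.81 and 2.40. Their median difference between RVO and control eyes was 0.51.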

How the data were processed

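RNAseq was performed on 9 pools of retina, 3 per group. Per the study's methods, poly-A libraries of a stranded kit were read for 50 cycles from 1 end, aligned with STAR (2.5.2b) to the GRCm38 mouse genome and assigned to genes with featureCounts (Subread 1.5.1, also named in the submitters' processing notes). The strand setting and the treatment of reads with several matches are not given in the sources used here. The values deposited are raw counts per gene by symbol. Of 48679 names, 92 spike-in names with 0 counts were left out. Libraries of 1 group differed by more than sampling noise, so each was counted as 1 replicate. Each pool is a separate sample, and p-values measure the spread between pools. RVO and control eyes are fellow eyes of the same mice, and the main fit of RVO against control eyes ignores this.

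Each pair of groups was fitted separately in R (4.3.3) with edgeR (4.0.16), using its filter on low counts, TMM scaling and the quasi-likelihood test, with adjustment over all tested genes and a threshold of 0.01. The SE is the size of the log2 fold change over the square root of F. Alternatives used DESeq2 (1.42.0), other scalings, filters and left-out samples. The test was checked on simulated counts. Total counts were 12377572 to 28993921 per sample. Intervals and floors of 3 counts cover counting error only. The 44 members and all lists were chosen with earlier results of these data known. Values per sample are given for the transcription factors, for every member called between RVO and control eyes, and, in each other role, for the 2 largest and the smallest changes in RVO eyes. Rsad2 and Iigp1 were added after their values were seen. Loci and shared 50-base stretches come from GENCODE vM21. A gene of the signalling list is not reported here, so no counts are given for that list.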

Additional observations from a re-analysis of the deposited data

How the results depend on the processing

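Against untreated eyes no alternative changed the direction of a member. With 1 sample left out, 40 to 43 members were called higher in RVO and 39 to 43 in control eyes, with medians of 2.63 to 2.99 and 2.28 to 2.66. Between RVO and control eyes the count of members called higher was 1 with edgeR, 2 with the DESeq2 Wald test, 5 at an adjusted p under 0.05, 0 to 14 with 1 sample left out and 15, with 3 lower, without both lens-rich samples. The median was then 0.18 to 0.68 with 1 sample left out.

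With the replicate number as a block, 0 members and 0 genes were called between RVO and control eyes with edgeR, while 9 members and 7227 genes had an unadjusted p under 0.05. Deviations of same-numbered RVO and control samples correlated at -0.169, -0.158 and 0.0949 over 15852 genes, and no RVO sample correlated best with its own number, so the numbers were not taken as a pairing. The largest correlation, 0.262, was between the lens-rich samples RVO2 and Control1, so this check cannot exclude that same-numbered pools hold the same mice. The block left 42 members called higher in RVO and 42 in control eyes against untreated eyes.

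Of members not called between RVO and control eyes, 13 changed sign in at least 1 alternative. With library size alone Parp9 was 0.00788, Dtx3l 0.00835 and Igtp 0.027, and with the block Igtp was 0.0035. With trends of GC content and length removed Irf1 was -0.045, Ifit1 0.0196, Parp14 0.065 and Dtx3l 0.12, and without both lens-rich samples Irf1 was -0.086 and Ifih1 -0.0145. With 1 sample left out the ranges were -0.14 to 0.28 for Ddx58, -0.30 to 0.14 for Dtx3l, -0.32 to 0.0699 for Gbp2, -0.0241 to 0.45 for Gbp3, -0.32 to 0.0224 for Herc6, -0.15 to 0.35 for Ifih1, -0.41 to 0.17 for Ifit1, -0.31 to 0.21 for Igtp, -0.24 to 0.28 for Irf1, -0.0517 to 0.45 for Irgm1, -0.54 to 0.20 for Mx2, -0.41 to 0.22 for Parp14 and -0.32 to 0.18 for Parp9. The cause was not tested.

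For RVO against control eyes, 456 of all genes rose and 107 fell (81% of calls higher), against 1832 and 2021 (47.5%) with all 9 samples in 1 fit, 1877 and 2161 (46.5%) with DESeq2, 1569 and 1740 (47.4%) without a filter, 756 and 661 (53.4%) with GC content and length trends removed, and 690 and 202 with library size alone. With 1 sample left out these counts ran from 0 to 2942 higher and 0 to 3315 lower, the highest without RVO2. Scaling by library size alone shifted the all-gene median against untreated eyes, from 0.01 to 0.22 for RVO and from 0.01 to 0.19 for control eyes. It raised the share of calls that were higher from 52.7% to 68.5% and from 51.9% to 70.3%. Removing GC content and length trends gave 39.4% in control eyes, with 2419 genes higher against 4371.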
